A study of Mus musculus with 4 samples.

Results

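The myeloid lineage transcription factors described here are the 9 genes Cebpa, Cebpb, Cebpd, Cebpe, Spi1, Gfi1, Irf8, Klf4 and Runx1, taken by symbol from a table of 55339 genes in mouse leukemia cells. All 9 were found and all 9 passed the filter on low values, which 17303 genes passed in all. Polyadenylated RNA had been sequenced from C57BL/6 leukemia cells taken from bone marrow. There were 2 libraries with the genotype YBX1-/- (titled cKO, replicates 1 and 3) and 2 of genotype WT (replicates 4 and 5). YBX1 is an RNA-binding protein, and the series title concerns its part in leukemia cell survival through mRNA stability and m6A. The oncogene that started the leukemia, the Cre driver, the age of the mice and the number of animals are not stated in the labels. The title of cKO replicate 3 carries the number 2 after RNA-seq, and those of the other libraries carry the number 1.

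These factors act in a cascade that turns a blood progenitor into a granulocyte or a monocyte. RUNX1 and PU.1, the product of Spi1, open the myeloid program in early progenitors, C/EBPα drives the step to granulocyte-monocyte progenitors, and C/EBPε and GFI1 carry granulocytes through maturation, while IRF8 and KLF4 favour monocytes and dendritic cells. C/EBPβ takes over from C/EBPα in emergency granulopoiesis and in macrophages, and C/EBPδ accompanies it in inflammation. Myeloid leukemias are held before the late steps of this cascade.

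The deposited values are log2 expression per gene, and without counts the depth behind them is unknown. A difference is cKO minus WT on this log2 scale, with the standard error (SE) of limma, a linear model with a spread moderated across all genes. A gene was called at a Benjamini-Hochberg adjusted p under 0.05. With 2 libraries against 2 the smallest two-sided p of an exact permutation test of 1 gene is 0.333, so no such test was run. Nothing in the labels says that replicates of a genotype come from separate mice, and p-values measure only the spread between these libraries, which may be technical. Fewer cells of a type and less RNA per cell cannot be told apart in such bulk libraries.

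The WT library numbered 4 differed from the rest. Across the 17303 genes its Pearson's r with each of them was 0.69 to 0.71, against 0.93 to 0.96 among the other 3. Its values fell into separate tracks: of 4080 genes with a median of 8 to 12 in the other 3 libraries, 31.6% lay between 5 and 6.5 in WT replicate 4, 0% between 6.5 and 7, 48.1% between 7 and 12, and 18.4% above 15. In WT replicate 5, 98.5% of the same genes lay between 7 and 12. The difference of each of the 9 factors is therefore also given without WT replicate 4, which leaves WT replicate 5 as the single WT library. Ybx1 was at 7.29 and 8.33 in the cKO libraries, against 19.70 and 10.002 in WT replicates 4 and 5. Both cKO values were below both WT values, with a difference of -7.04 (SE 3.49, limma adjusted p = 0.826), or -2.19 (SE 0.61, limma adjusted p = 0.480) with WT replicate 4 left out.

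**Figure D1:**
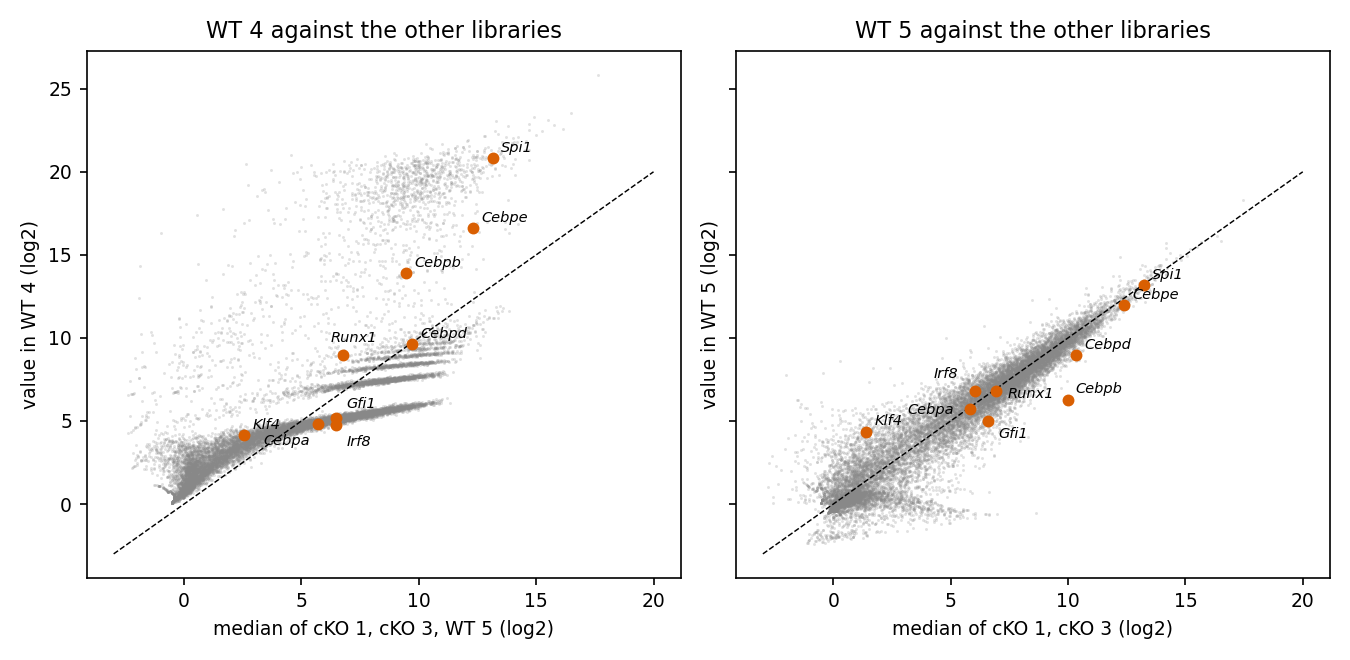
Each grey point is 1 of 17303 tested genes and each orange point a myeloid transcription factor gene. The value in WT 4 (left) is plotted against the median of the other 3 libraries, and that in WT 5 (right) against the median of the cKO libraries (all log2; dashed line, equal values). WT 4 shows separate tracks, with Gfi1 and Cebpa at values that most genes of their level share and Spi1 at 20.81.

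The members sat on different tracks of that library. Spi1, Cebpe and Cebpb lay over 3 log2 above the median of the other 3 libraries in WT replicate 4, by 7.65, 4.30 and 4.45. Gfi1 and Cebpa took values common to most genes of their level. For Gfi1, 74.3% of the 813 genes within 0.25 log2 of its median in the other 3 libraries were also within 0.25 of its value in WT replicate 4. For Cebpa the share was 64.7% of 637 genes, for Irf8 11.7% of 811 and for Klf4 27.3% of 556. Without counts it cannot be known whether such shared values are measurements of the gene itself.

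Between cKO and WT cells Gfi1 and Cebpd lay higher in both cKO libraries and Klf4 lower, but none of the 9 factors passed the test. Cebpb had the widest difference from WT replicate 5, at 3.70 log2 higher in cKO. Cebpa, Spi1 and Runx1 differed from WT replicate 5 by at most 0.13 log2 in either direction, within the difference between the cKO libraries. Limma called 0 of 17303 genes (0%) and 0 of the 9 factors, whose adjusted p-values lay between 0.826 and 0.992. Before adjustment 651 genes (3.76%) had a p under 0.05, and Klf4 was the 1 member among them. Both cKO values lay above both WT values in 2 of the 9 factors, where 17.3% of all tested genes did, and below them in 1, where 18.8% did, so neither count is large against the background. The median difference of the 9 was -0.12, beside -0.09 over all tested genes. With WT replicate 4 left out, 4 of the 9 lay above WT replicate 5 in both cKO libraries (41.8% of all genes) and 2 below (33.4%), with a median of 0.13 beside 0.07. Limma called 0 genes (0%) there as well, with 1799 at an unadjusted p under 0.05 (10.4%), Cebpb and Gfi1 among them.

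**Figure D2:**
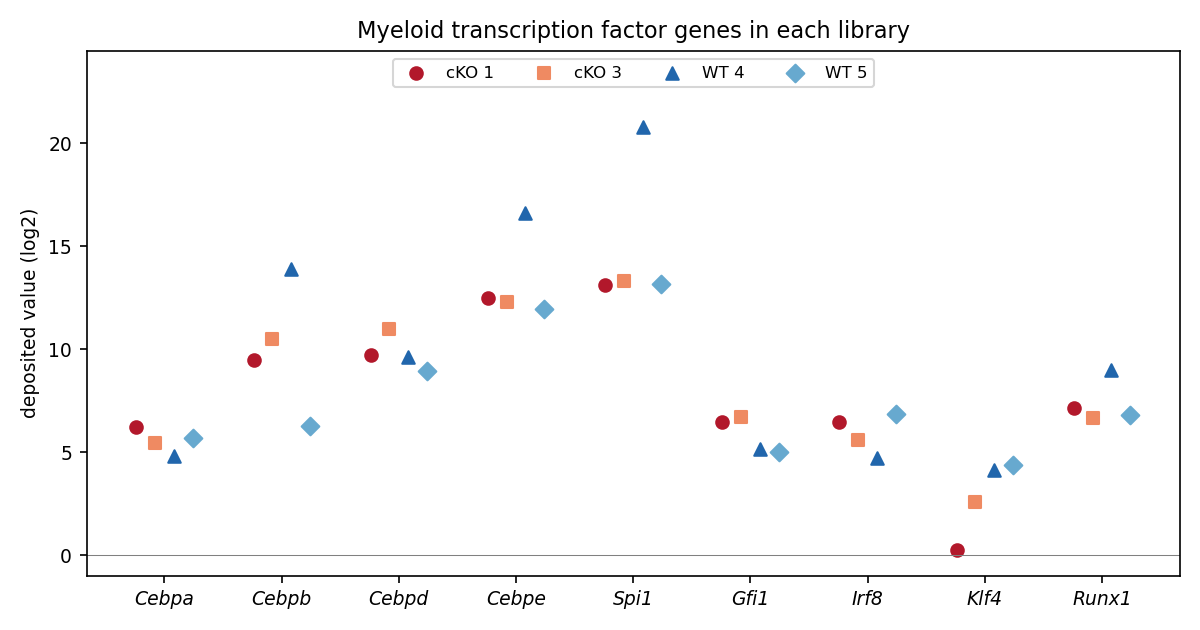
Deposited log2 values of the 9 factor genes, with 1 point for each library (red, cKO replicates 1 and 3; blue, WT replicates 4 and 5). The groups do not overlap for Cebpd, Gfi1 and Klf4, and WT 4 lies far above the rest for Cebpb, Cebpe and Spi1.

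Spi1 and Runx1 belong to the first step. Spi1 (chromosome 2, 91082390 to 91115756, plus strand, GRCm38), which encodes the ETS factor PU.1, was at 13.13 and 13.31 in the cKO libraries, against 20.81 and 13.16 in WT replicates 4 and 5. The cKO values lay on either side of WT replicate 5 and far below WT replicate 4. The difference was -3.77 (SE 7.74, limma adjusted p = 0.895), and without WT replicate 4 it was 0.06 (SE 0.22, adjusted p = 0.917). Without WT replicate 5, with WT replicate 4 as the single WT library, it was -7.59. Spi1 is the 1 member called in the authors' deposited table, at a log2 fold change of -6.43 (adjusted p = 0.00982 there), a table that calls 3.94% of the tested genes lower and 0.156% higher. Although its header names WT before cKO, that column is read here as cKO over WT, because over 17185 tested genes it followed the difference between the libraries, cKO minus WT (Pearson's r = 0.78, across genes, as a description). The authors' deposited table calls 681 tested genes lower, and 590 of them (86.6%) lay over 3 log2 above the median of the other libraries in WT replicate 4, as Spi1 did, against 11.3% of all tested genes.

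Runx1 (chromosome 16, 92601466 to 92826149, minus strand), the DNA-binding subunit of core-binding factor, was at 7.17 and 6.65 in cKO cells, against 8.98 and 6.79 in WT replicates 4 and 5. The groups overlap, and WT replicate 4 is again the high library. All 4 libraries gave a difference of -0.97 (SE 0.97, limma adjusted p = 0.826), against 0.12 (SE 0.41, limma adjusted p = 0.904) when WT replicate 4 was left out. Cbfb, the non-DNA-binding partner of RUNX1, was at 8.38 and 8.48 in cKO cells, against 7.45 and 8.11 in WT cells. Both cKO values were above both WT values, by a gap of 0.27, and the difference did not pass either (limma adjusted p = 0.829).

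The C/EBP genes encode basic leucine zipper factors that bind DNA as dimers of one another, and they did not lie on 1 side. Cebpa (chromosome 7, 35119293 to 35121928, plus strand) was at 6.21 and 5.45 in cKO cells, against 4.81 and 5.70 in WT cells. The groups overlap, and the difference was 0.58 (SE 0.76, limma adjusted p = 0.853), or 0.13 (SE 0.57, limma adjusted p = 0.932) without WT replicate 4.

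Cebpb (chromosome 2, 167688915 to 167690418, plus strand) was at 9.47 and 10.49 in the cKO libraries, against 13.92 in WT replicate 4 and 6.28 in WT replicate 5. The WT libraries thus lay on either side of both cKO libraries, 7.64 log2 apart, while the cKO libraries were 1.03 apart. Against WT replicate 5 alone the cKO level was 13.0-fold higher (difference 3.70, SE 0.60), with an unadjusted limma p of 0.0154 and an adjusted p of 0.466. In WT replicate 5, Cebpb was at the 57.1 percentile of tested genes, against the 88.6 and 95.2 percentiles in the cKO libraries and 93.4 in WT replicate 4. Of the 523 genes within 0.25 log2 of its cKO median, 0.191% were within 0.25 of its value in WT replicate 5, and their median there was 9.84. With all 4 libraries the difference was -0.12 (SE 2.70, limma adjusted p = 0.992). It was -3.94 without WT replicate 5 and 0.39 without cKO replicate 1, so its direction changes with the library left out. The authors' deposited table gives Cebpb a log2 fold change of -3.87 (adjusted p = 0.127 there). That is opposite in sign to the difference from WT replicate 5.

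The start region of Cebpb is shown because this gene has the widest difference from WT replicate 5 and because its known control by CREB acts close to the start. The sequence is from RefSeq (GRCm38.p6, chr2:167688665-167688964, plus strand) and holds 250 bases before and 50 bases from the transcript start. Capitals mark matches, on either strand, to 7 searched motifs. The TATA box was searched as TATAAA and the core of a CREB site as TGACG. For C/EBP factors the letters were TTNNGNAA, with any base at N. For PU.1 they were GAGGAA, and for RUNX factors TGTGGT. For GFI1 they were AAATC, and for KLF factors CACCC.
Cebpb start region: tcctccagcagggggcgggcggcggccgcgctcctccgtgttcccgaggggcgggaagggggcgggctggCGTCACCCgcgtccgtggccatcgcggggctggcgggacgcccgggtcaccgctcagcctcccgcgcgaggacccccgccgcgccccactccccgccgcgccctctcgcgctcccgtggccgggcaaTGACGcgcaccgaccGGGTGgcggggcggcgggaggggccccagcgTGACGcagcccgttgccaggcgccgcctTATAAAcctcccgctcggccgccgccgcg
It holds 1 match to TATAAA, which lies 21 bases after the start and not before it, 3 to TGACG, at 180, 53 and 7 bases before the start, and 2 to CACCC, the upstream one of which shares bases with a TGACG match. Of 32851 start regions of this length, 20.8% hold TGACG, 57.5% CACCC and 13.6% TATAAA. The region has no match to the C/EBP letters, which 40.7% of all start regions hold. A match is a stretch of letters and not a bound site.

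Cebpd (chromosome 16, 15887286 to 15891031, plus strand), an acute-phase member of the family, was at 9.72 and 10.99 in the cKO libraries, against 9.65 and 8.95 in WT cells. Both cKO values were above both WT values, but cKO replicate 1 only by 0.07, and the cKO libraries were 1.27 apart. After each library was centred on its median the groups of Cebpd overlap. The difference was 1.05 (SE 1.02, limma adjusted p = 0.826), and without WT replicate 4 it was 1.40 (SE 0.73, limma adjusted p = 0.593). Among the libraries with the number 1 in their titles, which leaves out cKO replicate 3, it was 0.42. The authors' deposited table gives Cebpd a log2 fold change of -3.57 (adjusted p = 0.222), opposite in sign to the values of the libraries. Such a sign was deposited for 335 of the 3000 tested genes (11.2%) with both cKO values above both WT values.

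Cebpe (chromosome 14, 54710360 to 54712174, minus strand), needed for secondary granules, was at 12.47 and 12.31 in cKO cells, against 16.61 and 11.96 in WT replicates 4 and 5. Against WT replicate 5 both cKO libraries were higher by a little, 0.43 (SE 0.20, limma adjusted p = 0.572), while with all libraries the difference was -1.90 (SE 3.46, limma adjusted p = 0.883). Leaving out WT replicate 5 instead gave -4.22. Its rank in WT replicate 4 was the lowest of the 4, at the 94.3 percentile against 98.7 to 99.3 in the others, although its value there was the highest.

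**Figure D3:**
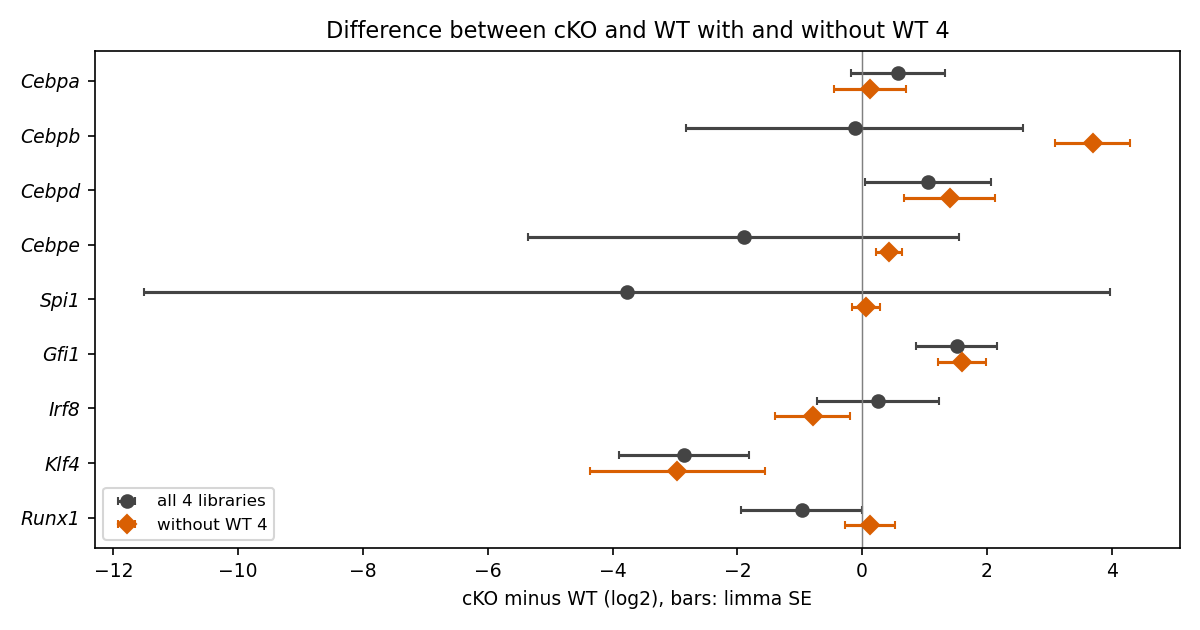
Difference between cKO and WT (log2) for each factor with all 4 libraries (grey circles) and without WT 4 (orange diamonds), with the limma SE as bars. Gfi1, Cebpd and Klf4 keep their side, whereas Cebpb is at -0.12 with all libraries and 3.70 without WT 4, and the SE of Spi1 is 7.74 with WT 4 and 0.22 without it.

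Gfi1 had the tightest groups of the 3 factors whose groups do not overlap. Gfi1 (chromosome 5, 107716657 to 107726036, minus strand) encodes a zinc finger repressor that favours granulocytes over monocytes and restrains stem cell division. It was at 6.47 and 6.71 in the cKO libraries, against 5.15 and 4.998 in WT replicates 4 and 5. The gap of 1.32 between the groups was wider than the distance within either pair, which was 0.24 in cKO and 0.15 in WT cells. The difference was 1.52 (SE 0.65), with an unadjusted limma p of 0.0709 and an adjusted p of 0.826. Without WT replicate 4, where its value is one that most genes of its level share, it was 1.59 (SE 0.39, limma adjusted p = 0.477), a level 3.02-fold above WT replicate 5. It was 1.40 among the libraries with the number 1 in their titles, and 0.91 (limma adjusted p = 0.845) after quantile normalization, which gives every library the same distribution. Its log2 fold change is 2.26 in the authors' deposited table (adjusted p = 0.339). Gfi1b, its relative of red cells and platelets, was at 5.61 and 2.14 in cKO cells, against 4.49 and 5.95 in WT cells, with overlapping groups.

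Irf8 (chromosome 8, 120736358 to 120756694, plus strand), the factor of monocytes and dendritic cells that works with PU.1, was at 6.48 and 5.60 in cKO cells, against 4.74 and 6.83 in WT replicates 4 and 5. The groups overlap, with the WT libraries at both ends. All 4 libraries gave a difference of 0.25 (SE 0.98, limma adjusted p = 0.941), and leaving out WT replicate 4 gave -0.80 (SE 0.59, limma adjusted p = 0.685). Leaving out cKO replicate 1 gave -0.19, so its direction changes with either library.

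Klf4 (chromosome 4, 55527143 to 55532466, minus strand), a zinc finger factor of monocyte differentiation, had the lowest log2 level per kilobase of transcript among the 9 in each of the 4 libraries. It was at 0.23 and 2.56 in the cKO libraries, against 4.15 and 4.36 in WT replicates 4 and 5. Both cKO values were below both WT values, but the cKO libraries were themselves 2.33 apart. The difference was -2.86 (SE 1.04), with an unadjusted limma p of 0.0441 and an adjusted p of 0.826. Without WT replicate 4 it was -2.96 (SE 1.40, limma adjusted p = 0.572), a level 7.79-fold below WT replicate 5. Among the libraries with the number 1 in their titles it was -4.02, and without cKO replicate 1 it was -1.69. At such low values the depth would decide what can be seen, and it is unknown. The B cell gene Ms4a1, at -1.12 and -1.12 in cKO cells, against -0.89 and -1.12 in WT cells, shows that low genes can take nearly 1 value in several libraries, so that a low value need not stand for reads. Klf4 is at a log2 fold change of -2.56 in the authors' deposited table (adjusted p = 1).

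The start regions of Gfi1 and Klf4 are shown as those of the factors that lay apart in opposite directions and kept their side without WT replicate 4. They are from RefSeq (GRCm38.p6) in the same window as for Cebpb, at chr5:107725756-107726055 and chr4:55532426-55532725, both on the minus strand, and the upstream of its 2 listed starts is used for Gfi1. Capitals again mark matches to the 7 motifs.
Gfi1 start region: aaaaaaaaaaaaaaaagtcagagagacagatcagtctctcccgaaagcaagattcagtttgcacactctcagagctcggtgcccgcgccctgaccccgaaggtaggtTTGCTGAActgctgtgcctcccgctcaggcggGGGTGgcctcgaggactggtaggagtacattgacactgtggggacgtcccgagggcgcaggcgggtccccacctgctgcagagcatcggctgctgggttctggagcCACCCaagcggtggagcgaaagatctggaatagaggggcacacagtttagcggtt
Klf4 start region: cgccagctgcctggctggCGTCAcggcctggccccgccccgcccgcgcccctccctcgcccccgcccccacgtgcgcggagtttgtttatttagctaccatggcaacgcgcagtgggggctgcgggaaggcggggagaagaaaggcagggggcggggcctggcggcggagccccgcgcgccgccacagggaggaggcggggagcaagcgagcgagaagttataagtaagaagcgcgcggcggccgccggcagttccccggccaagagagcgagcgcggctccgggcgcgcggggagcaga
Gfi1 holds 1 match to TTNNGNAA, at 143 bases before the RefSeq start used, and 2 to CACCC. The span of Gfi1 given above ends at 107726036 on the minus strand. Most of this window, with all its matches, thus lies inside that span and after the start it gives. Klf4 holds 1 match, to TGACG, at 232 bases before the start. The windows differ in composition, with 58% G and C in Gfi1, 74.3% in Klf4 and 80.7% in Cebpb, beside a median of 52.7% over all start regions. Sequences were found for 6 of the 9 factors.

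**Figure D4:**
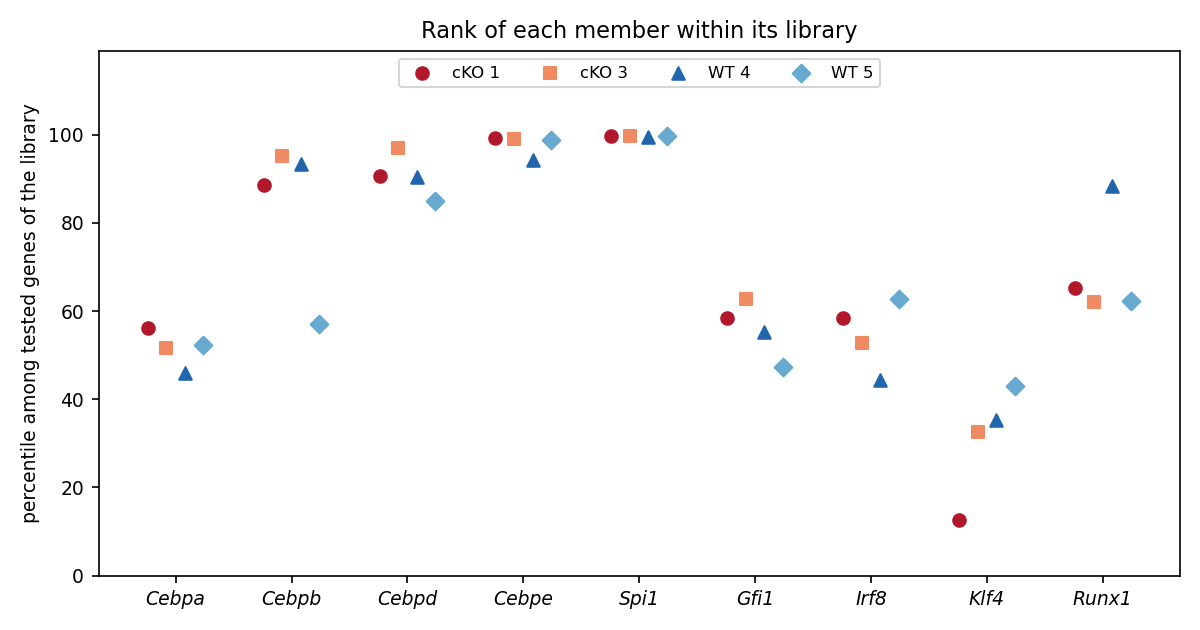
Percentile of each factor gene among the 17303 tested genes of its own library, with 1 point for each library (red, cKO replicates 1 and 3; blue, WT replicates 4 and 5). Spi1 lies above 99 in all 4 libraries, Cebpb lies at 57.1 in WT 5 and at 88.6 to 95.2 in the others, and Klf4 lowest in the cKO libraries.

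Ranks within a library do not depend on its scale. By rank Spi1 was at the 99.4 to 99.7 percentile in all 4 libraries. Gfi1 was at the 58.3 and 62.6 percentiles in cKO cells, against 55.2 and 47.3 in WT cells. Klf4 was at 12.6 and 32.7, against 35.2 and 43.1. Runx1 was at 65.3 and 62.1, against 88.4 in WT replicate 4 and 62.2 in WT replicate 5. After quantile normalization both cKO values of Cebpe and Spi1 also lay above both WT values, so that 4 factors were higher, where 23.5% of all genes were, and Klf4 was lower, where 12.5% were.

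The levels of a pair of factors can also be set against each other within a library, and 2 pairs chosen after their values were seen are given as a description. Gfi1 was 6.24 and 4.15 log2 above Klf4 in the cKO libraries, against 1.003 and 0.64 in WT replicates 4 and 5. As Gfi1 lay higher and Klf4 lower in both cKO libraries, this pair had to lie apart. Of all 36 pairs of the factors, 12 had groups that do not overlap. Gfi1 stood to Irf8 at -0.01 and 1.12 in cKO cells, against 0.42 and -1.83 in WT cells, with overlapping groups. Set per kilobase of transcript, the log2 level of Spi1 was 12.11 and 12.28 in cKO cells, against 19.79 and 12.13 in WT cells, and that of Cebpe 12.16 and 11.997, against 16.30 and 11.65. In cKO cells these factors were followed by Cebpb, Cebpd, Gfi1, Irf8, Cebpa, Runx1 and Klf4, with mean log2 levels per kilobase of 9.39, 8.45, 5.08, 4.53, 4.44, 4.36 and -0.20. Neighbours in this order from Gfi1 to Runx1, Spi1 and Cebpe, and Cebpb and Cebpd, differed by less than the cKO libraries did in at least 1 gene of the pair.

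Since the series title concerns m6A, a methyl mark on mRNA often set in a GGACT context, the letters of the principal GENCODE M21 transcripts (GRCm38) were read. Per kilobase of transcript Spi1 has 2.95 GGACT stretches, Gfi1 2.80, Cebpb 2.66, Klf4 1.65, Cebpa 1.52, Cebpd 1.33 and Runx1 1.02, beside a median of 1.06 over 12793 tested genes with such a transcript. Cebpe and Irf8 have 0. ATTTA, the core of AU-rich decay elements, occurs in the 3′ untranslated region of 5 of the 9, with 14 copies in Runx1, 7 in Cebpd, 2 in Gfi1 and Irf8 and 1 in Klf4, beside 64.6% of tested genes with at least 1. Cebpa, Cebpb and Cebpd are single-exon genes, as are 3.05% of tested genes. Gfi1, Cebpd and Klf4, whose groups do not overlap in the values as deposited, hold both kinds of stretch, as does Runx1, whose groups overlap. Neither kind is rare, as tested genes have a median of 3 GGACT stretches per transcript and 64.6% hold ATTTA. A stretch of letters does not show methylation.

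None of the other monocyte and dendritic cell transcription factor genes passed the test. Of 14 such genes, 7 had both cKO values below both WT values and 1 above, beside backgrounds of 18.8% and 17.3%. Their median difference was -0.58, or -1.02 when WT replicate 4 was left out, where 10 of 14 lay below WT replicate 5 and 3 above, beside 33.4% and 41.8%. Bcl6, a repressor, was at 3.70 and 2.87 in cKO cells, against 4.74 and 5.57 in WT cells. Id2, an inhibitor of helix-loop-helix factors needed by dendritic cells, was at 7.38 and 8.62, against 9.58 and 9.90. Batf3, a factor of cross-presenting dendritic cells, was the 1 gene of this list on the higher side, at 5.90 and 5.57 in cKO cells, against 4.80 and 4.67 in WT cells. Of the 14, 1 is called lower and 0 higher in the authors' deposited table, beside 3.94% and 0.156% of all tested genes. The called gene lay over 3 log2 above the median of the other libraries in WT replicate 4.

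**Figure D5:**
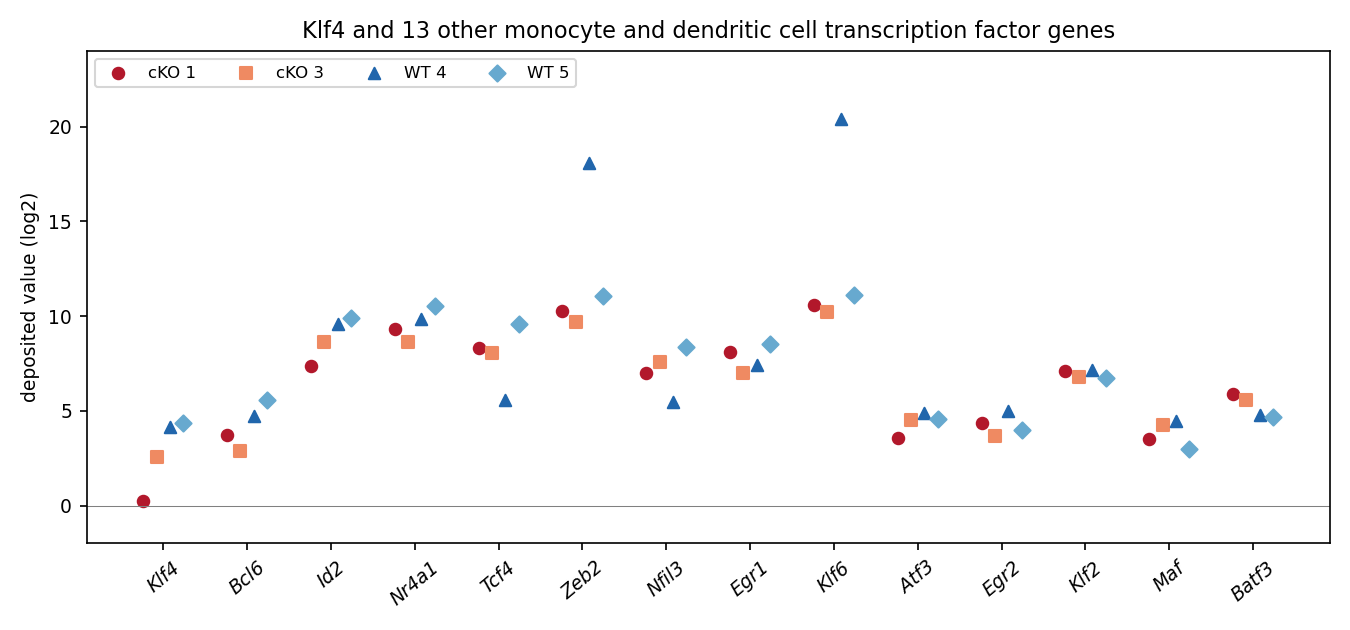
Deposited log2 values of Klf4 and 13 other transcription factor genes of monocytes and dendritic cells, ordered by the difference from WT 5 (red, cKO replicates 1 and 3; blue, WT replicates 4 and 5). From Klf4 to Nr4a1 on the left both cKO libraries lie below both WT libraries, and Batf3 on the right lies above them.

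The known target genes of these factors showed 11 of 21 below both WT libraries and 0 above, beside the same backgrounds, with a median difference of -3.37. After quantile normalization of all 4 libraries that median was -0.037. Without WT replicate 4 the median was -0.62, with 14 of 21 below WT replicate 5 and 3 above. Ltf, the lactoferrin gene that depends on C/EBPε, was at 6.49 and 6.38 in cKO cells, against 8.90 and 10.71 in WT cells. Camp and Ngp, secondary granule genes under the same factor, were at 12.04 and 12.36 and at 14.15 and 14.19 in cKO cells, against 19.41 and 14.87 and 21.81 and 15.71 in WT cells. Others of the list did not lie so. Lcn2, another secondary granule gene, was at 10.22 and 11.13 in cKO cells, against 10.39 and 11.14 in WT cells, and Mmp8, a granule collagenase gene, at 8.58 and 9.28, against 5.75 and 8.92. The primary granule protease genes Elane, Prtn3 and Ctsg were 0.67, 0.73 and 1.13 above WT replicate 5. With all 4 libraries their differences were -3.17, -2.95 and -3.25, with overlapping groups and WT replicate 4 as the highest library. Each of these protease genes is called lower in the authors' deposited table. Cebpe itself was 0.43 higher in cKO cells than in WT replicate 5, while Ltf was -4.28 from it on the same scale. Of the 21, 11 are called lower and 0 higher in the authors' deposited table, beside 3.94% and 0.156% of all tested genes, and 10 of those 11 lay over 3 log2 above the median of the other libraries in WT replicate 4. The receptor gene Csf1r, a target of PU.1 and RUNX1, was at 9.57 and 8.80 in cKO cells, against 7.60 and 9.80 in WT cells.

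Counts for the partners and relatives of the factors stand beside the same backgrounds, 17.3% of all tested genes above both WT values and 18.8% below. Of 6 tested C/EBP partners and adaptors the cKO values of 1 exceeded both WT values and those of 0 were under them, with a median difference of 0.90 (-0.16 without WT replicate 4). Against WT replicate 5 alone, 2 of the 6 lay above in both cKO libraries and 3 below. Over all tested genes these shares were 41.8% and 33.4%. Cop1, the ubiquitin ligase that removes C/EBPα, was at 7.25 and 7.002 in cKO cells, against 5.26 and 6.93 in WT cells. Of 20 relatives and partners of PU.1, IRF8, RUNX1 and GFI1, the same counts were 1 and 2 and the median 0.57 (-0.43 without WT replicate 4). Against WT replicate 5 alone, 2 of the 20 lay above and 12 below, beside the same shares of 41.8% and 33.4%. Spib, the PU.1 relative of lymphoid cells, was at 3.60 and 3.01 in cKO cells, against 5.90 and 4.71 in WT cells. Fli1, an ETS factor of blood progenitors, was at 10.05 and 9.91, against 18.74 and 10.08. It is called lower in the authors' deposited table and lay 8.69 log2 above the median of the other libraries in WT replicate 4. That table calls 2 of these 20 lower, beside 3.94% of all tested genes.

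Of 11 tested factors of progenitors and other lineages, the cKO values of 3 exceeded both WT values and those of 1 were under them, beside 17.3% and 18.8% of all tested genes, with a median of -0.37 (0.18 without WT replicate 4). Against WT replicate 5 alone, 6 of the 11 lay above and 2 below, beside 41.8% and 33.4% of all tested genes. Tcf3, which encodes the E proteins of lymphoid commitment, was at 8.68 and 8.71 in cKO cells, against 5.497 and 7.18 in WT cells. Bcl11a, a fetal globin repressor, was at -0.33 and 2.12, against 3.48 and 4.25, and Lyl1, a stem cell factor, at 10.45 and 10.55, against 7.79 and 10.37. No gene of any of these lists was called by limma. With all 4 libraries the smallest limma adjusted p among them was 0.826. That is also the smallest over all tested genes, and Ybx1 had the same value.

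The genes whose values over the 4 libraries were most like those of a factor were found by the root mean square difference of mean-centred log2 values. For Gfi1 they were Prmt2, Arsa and Ankmy2, at 0.06, 0.08 and 0.08 log2. For Cebpd they were Il18bp, Elp4 and Ino80b, at 0.04, 0.06 and 0.08, and for Klf4 Alpk2, Il27ra and Rfx2, at 0.14, 0.15 and 0.16. Prmt2, a protein arginine methyltransferase gene, was at 6.25 and 6.49 in cKO cells, against 5.003 and 4.93 in WT cells. The likeness is over 4 libraries and is given as a description.

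The labelled cell type was checked by markers. The myeloid genes Ptprc, Itgam, Mpo, Elane, Lyz2 and Cd33 exceeded log2 5 in all 4 libraries, and Kit in WT replicate 5 alone. The B cell marker Cd79b was at 7.41 and 7.18 in cKO cells, against 5.16 and 6.996 in WT cells. Cd3e, Cd3g and Cd8a were at 0 in all libraries. The log2 of the summed values of the 7 myeloid genes was 16.82 and 16.85 in cKO cells, against 24.19 and 16.56 in WT cells. For 4 B cell genes it was 7.42 and 7.25, against 5.75 and 7.02, and for 5 T and NK cell genes 0.97 and 1.34, against 2.73 and 0.97. For 6 erythroid genes it was 1.84 and 4.49 in cKO cells, against 6.76 and 3.99 in WT cells, and for 4 megakaryocyte genes 3.63 and 2.29, against 3.47 and 5.504. For 6 genes of stroma and endothelium, of which Lepr was at 0 throughout, it was 6.62 and 6.31, against 7.12 and 6.13. Their part in the values of the 9 factors was not tested.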

How the data were processed

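In the authors' deposited table each row is a gene symbol and each sample has 1 column of log2 values; their normalization is not stated. The table also holds the authors' own log2 fold change, p-value and adjusted p-value. CASAVA, HISAT2 2.1.0, featureCounts, DESeq2 and the build GRCm38 are listed, without role or order, per the submitters' processing notes. Depth is unknown, so no interval that needs it is given.

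Genes with a log2 value of at least 0 in at least 2 libraries (17303) were tested with limma 3.58.1 on the values as deposited. Differences are cKO minus WT, the fit has a mean-variance trend (R 4.3.3), and Benjamini-Hochberg adjustment covers all of these genes. The script was tested on simulated data with 1 spread for all genes and libraries, taken from the cKO pair. The tracks of WT replicate 4 were not simulated, so that test cannot show what the fit recovers in these libraries. The alternatives were leaving out each library, pseudocounts of 0.1 and 1, no filter or a filter of log2 5, centring and quantile normalization. Scaling without WT replicate 4 was added after seeing the data. The factors and lists were chosen with earlier results of these data known. Named genes are the 9 factors, Ybx1, the 3 genes of each list with the widest gap between groups that do not overlap, and the 3 genes most like each factor with such groups, leaving out clone-named symbols. Some genes that the rule or the marker lists hold are not reported here by name. Gfi1b, Batf3, Csf1r, Lcn2, Mmp8, Elane, Prtn3, Ctsg and the cell markers were named after their values were seen.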

Additional observations from a re-analysis of the deposited data

How the results depend on the processing

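Cebpa, Cebpd and Gfi1 kept their direction and stayed uncalled under all 12 alternatives, with differences of 0.13 to 1.02, 0.42 to 2.15 and 0.91 to 1.67. The Cebpd groups overlap under centring. Klf4 kept its direction uncalled under 11, at -4.02 to -1.69, and had no value under the filter of log2 5. No paired analysis was possible because the groups share no replicate number. Leaving out 1 library moved the called genes from 0 to between 0 and 4960: 4960 without WT replicate 5, 88 without cKO replicate 3, 26 without cKO replicate 1 and 0 without WT replicate 4. In each such fit the lone library of a genotype is assumed to vary like the pair of the other.

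Leaving out 1 library gave differences of -3.94 to 3.70 for Cebpb, -4.22 to 0.43 for Cebpe, -7.59 to 0.060 for Spi1, -0.80 to 1.30 for Irf8 and -2.07 to 0.12 for Runx1. In the fit without WT replicate 5, Cebpb, Cebpe and Spi1 were among the called genes, on the lower side. The single WT library of that fit is WT replicate 4. Quantile normalization of all 4 libraries gave 2.30 for Cebpb, 1.52 for Cebpe and 0.37 for Spi1. Without WT replicate 4, quantile normalization gave 3.70 for Cebpb, 0.52 for Cebpe, 0.23 for Spi1, -0.78 for Irf8 and 0.15 for Runx1, and centring gave 3.77, 0.50, 0.14, -0.72 and 0.20 for the same genes. The cause was not tested.

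The median of the 9 factors was -2.07 to 0.13 with 1 library left out, 0.066 under the filter of log2 5 and 0.53 after quantile normalization. Without WT replicate 4 it was 0.23 after quantile normalization and 0.20 after centring. With 1 library left out the list medians were -0.16 to 1.85 for C/EBP partners, -0.43 to 1.11 for relatives and partners, -1.02 to -0.55 for monocyte factors, -0.24 to 0.18 for progenitor factors and -7.01 to -0.62 for target genes. Quantile normalization of all 4 libraries gave -0.037 for target genes and -0.015 for relatives and partners, and for progenitor factors the filter of log2 5 gave 0.54. Without WT replicate 4, quantile normalization and centring gave -0.15 and -0.080 for C/EBP partners, -0.45 and -0.35 for relatives and partners, and 0.14 and 0.26 for progenitor factors. The median of all tested genes, -0.09 in the values as deposited, was -0.46 without WT replicate 5, 0.07 without WT replicate 4, -0.23 under centring, 0.16 after quantile normalization and 0.60 under the filter of log2 5. With WT replicate 4 left out it was 0.15 under centring and 0.02 after quantile normalization.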
